A study of Mus musculus with 6 samples.

Results

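The SMAD family of EpH4 cells was described across 6 arrays. EpH4 is a mouse mammary epithelial cell line that grows as a polarised monolayer. The monolayers had been confluent for 7 days, with tight junctions in place, and then spent 24 hours in serum-free medium with either vehicle (3 arrays) or TGF-β3 at 1 ng/ml (3 arrays). Each array carried RNA pooled from 3 wells of a single experiment, there were 3 experiments, and all groups used the same cell line, so the results describe this line. The members were the 8 mammalian SMAD genes Smad1, Smad2, Smad3, Smad4, Smad5, Smad6, Smad7 and Smad9. They were found as the 94 probe sets, of 241576 on the array, whose only gene symbol was a SMAD gene, and their probe sets were averaged per gene and array, which gave 8 of 20848 genes. No probe set naming a SMAD gene named a second gene.

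SMAD proteins carry the signal of the TGF-β superfamily from the cell surface to the nucleus. An activated receptor phosphorylates the receptor-activated SMADs at their carboxyl terminus: Smad2 and Smad3 for TGF-β and activin receptors, and Smad1, Smad5 and Smad9 (also called Smad8) for BMP receptors. The phosphorylated proteins join the common partner Smad4 and bind DNA at short SMAD-binding elements. Smad6 and Smad7, the inhibitory SMADs, compete for receptors and recruit ubiquitin ligases, and their genes are known targets of the pathway, Smad7 of TGF-β and Smad6 mainly of BMP signals. In mammary epithelium TGF-β signalling through SMADs is known for growth arrest and for its part in involution.

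The sequence letters that SMAD complexes bind are shown for the family's own promoters because the inhibitory members are textbook targets. RefSeq promoters of the mouse build GRCm38.p6, each 300 bases long (250 before and 50 after an annotated start), were at hand for Smad1, Smad3, Smad5, Smad6 and Smad9, 5 of the 8 genes, in 7 windows. Smad2, Smad4 and Smad7 were not searched. Both strands were searched. The palindrome GTCTAGAC, a classic SMAD-binding element, was found in the Smad6 window alone among these 7, beginning 4 bases before the start used for that window. The annotated Smad6 gene reaches further upstream, to chr9:64022085, so the match lies inside the gene's annotated extent. The palindrome was in 0.213% of all 32851 promoters at hand. The shorter box CAGAC or its reverse complement was found in 1 of the 7 windows, a Smad5 promoter, and in 49.6% of all promoters. Neither motif contains the other. A match describes letters only. In the sequences, written 5′ to 3′ on the gene's strand, capitals mark the motif.
Smad6 promoter (GRCm38.p6, chr9:64022010-64022309, minus strand): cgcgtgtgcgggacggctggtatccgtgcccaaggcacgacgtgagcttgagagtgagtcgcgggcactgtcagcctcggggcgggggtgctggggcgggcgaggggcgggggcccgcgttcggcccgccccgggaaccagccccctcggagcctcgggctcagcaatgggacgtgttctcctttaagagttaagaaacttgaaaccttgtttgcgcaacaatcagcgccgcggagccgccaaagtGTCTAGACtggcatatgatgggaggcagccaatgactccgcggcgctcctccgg
Smad5 promoter stretch (GRCm38.p6, chr13:56703637-56703661, plus strand): tgcccaagttCAGACtccatcccct

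Values are log2 signals as the authors deposited them, after RMA, a method that corrects background, normalizes and summarises probe intensities. Probe sets differ in how well they bind, so the signals of different genes, such as the markers below, compare only roughly. Array medians ran from 6.56 to 6.64. Luminal markers bore out the label in part: Krt8, Krt18, Cldn4, Cdh1, Cldn3 and Epcam had mean signals from 11.8 to 9.89, whereas Krt19 and Elf5 stood at 4.92 and 5.09. Of 6 basal markers the keratin gene Krt14 stood at 9.71, and the other 5 (Krt5, Trp63, Acta2, Myh11 and Oxtr) lay between 4.93 and 6.33. Of 5 fibroblast markers the collagen genes Col1a1 and Col1a2 stood at 9.14 and 8.65, and Pdgfra, Lum and Dcn at 6.82, 4.38 and 4.34. The markers of leukocytes, endothelium and adipocytes lay between 4.58 and 6.97, the highest being Cd68 (6.97) and Csf1r (6.85). The leukocyte markers differed between the groups in both directions. Csf1r and Cd68 were higher with TGF-β3, by 0.36 (SE 0.15) and 0.15 (SE 0.10). Ptprc, Cd3e and Adgre1 were lower, at -0.22 (SE 0.11), -0.17 (SE 0.10) and -0.15 (SE 0.09). The median of all genes was 6.08, and no marker passed the test between the groups.

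The comparison of TGF-β3 with vehicle asked whether the transcripts of the pathway's own transducers differ after the ligand has been present for 24 hours. They differed little. The largest difference of means among the 8 genes was 0.14 on the log2 scale, in Smad2, and the lowest was -0.07, in Smad9. The threshold was a limma p of 0.05 after Benjamini-Hochberg adjustment over all genes. It was passed by 0 of the 8 members and 0 of 20848 genes (0%), and, in the fit that blocked on sample number, by 0 of 8 members and 0.00959% of genes. Before adjustment, 0 members lay under 0.05 in either fit, against 5.16% of all genes in the unblocked fit and 12.2% in the blocked fit. The 95% interval of every SMAD gene stayed within a 1.5-fold difference, from a lowest bound of 0.84-fold to a highest of 1.28-fold. In bulk RNA a change in the share of cells and a change in RNA per cell cannot be told apart.

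Smad2 and Smad3 encode the transducers that TGF-β receptors phosphorylate. Smad2 had signals of 7.65, 7.68 and 7.48 in vehicle arrays 1, 2 and 3 and of 7.62, 7.78 and 7.82 in TGF-β3 arrays 1, 2 and 3. Vehicle 3 was the lowest and TGF-β3 3 the highest array, and the groups overlapped because TGF-β3 1 lay below vehicle arrays 1 and 2. The group means were 7.60 ± 0.11 and 7.74 ± 0.11 (SD, n = 3), a difference of 0.14 (SE 0.09, 95% interval -0.07 to 0.35, limma adjusted p = 0.684). By sample number the differences were -0.03, 0.11 and 0.34, so that number 3 held most of it. Without both arrays of number 3 the difference was 0.038.

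Smad3 had the smallest difference of the family. Its signals were 9.44, 9.33 and 9.36 in vehicle and 9.47, 9.29 and 9.37 in TGF-β3. The arrays of number 1 were the highest of both groups, and the groups overlapped throughout. The means were 9.38 ± 0.05 and 9.38 ± 0.09 (SD, n = 3), a difference of 0.001 (SE 0.08, 95% interval -0.19 to 0.19, limma adjusted p = 0.997).

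Smad1, Smad5 and Smad9 encode the transducers of BMP receptors. Smad5 had signals of 7.96, 7.94 and 7.85 in vehicle and 7.96, 8.10 and 8.08 in TGF-β3. It was the member whose groups did not overlap, by a margin of 0.001 between the 2 arrays of number 1, and 6.84% of all genes were higher without overlap. The means were 7.91 ± 0.06 and 8.05 ± 0.08 (SD, n = 3), a difference of 0.13 (SE 0.08, 95% interval -0.05 to 0.32, limma adjusted p = 0.684). By number it was 0.001, 0.17 and 0.23.

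Smad1 varied more between sample numbers than between treatments. Its signals were 7.71, 7.60 and 7.45 in vehicle and 7.78, 7.64 and 7.47 in TGF-β3. Number 1 was highest and number 3 lowest in both groups, which overlapped, and the TGF-β3 array was the higher of each pair, by 0.07, 0.04 and 0.02. Smad1 and Smad5 were the members higher in 3 of 3 pairs, as were 24% of all genes. The mean difference was 0.04 (SE 0.11, 95% interval -0.19 to 0.28, limma adjusted p = 0.865), against a spread of 0.28 between the means of the 3 numbers.

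Smad9 had signals of 5.44, 5.32 and 5.41 in vehicle and 5.31, 5.39 and 5.27 in TGF-β3. The groups overlapped, and TGF-β3 was lower in numbers 1 and 3 and higher in number 2. The difference was -0.07 (SE 0.08, 95% interval -0.25 to 0.11, limma adjusted p = 0.736). No member was lower in 3 of 3 pairs, where 18.1% of all genes were, and none was lower without overlap, where 6.05% were. Of its 10 probe sets, 4 lay below the lower quartile of mean signal on the array (5.04), so this value rests partly on dim probe sets.

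Smad4, the common partner, had signals of 9.49, 9.56 and 9.50 in vehicle and 9.45, 9.59 and 9.67 in TGF-β3. TGF-β3 3 was the highest array and TGF-β3 1 the lowest, so the groups overlapped on both sides. The difference was 0.05 (SE 0.09, 95% interval -0.14 to 0.24, limma adjusted p = 0.816). Vehicle arrays spanned 0.075, the narrowest range of the family, and the TGF-β3 arrays 0.219.

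The inhibitory members, whose genes the pathway is known to induce, differed by amounts close to those of the other members. Smad7 had signals of 7.69, 7.57 and 7.76 in vehicle and 7.84, 7.60 and 7.73 in TGF-β3. The arrays of number 2 were the lowest of both groups, and the groups overlapped. By number the differences were 0.15, 0.03 and -0.03, with a mean of 0.05 (95% interval -0.16 to 0.26, limma adjusted p = 0.826), so the interval reached at most 1.20-fold. Smad6, which carries the palindrome printed above, had signals of 7.00, 6.71 and 6.57 in vehicle and 6.99, 6.61 and 6.83 in TGF-β3. Both arrays of number 1 stood above the other 4. The difference was 0.05 (SE 0.13, 95% interval -0.25 to 0.35, limma adjusted p = 0.874), and by number it was -0.005, -0.10 and 0.26. Smad6 had the widest vehicle range of the family, 0.425.

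**Figure D1:**
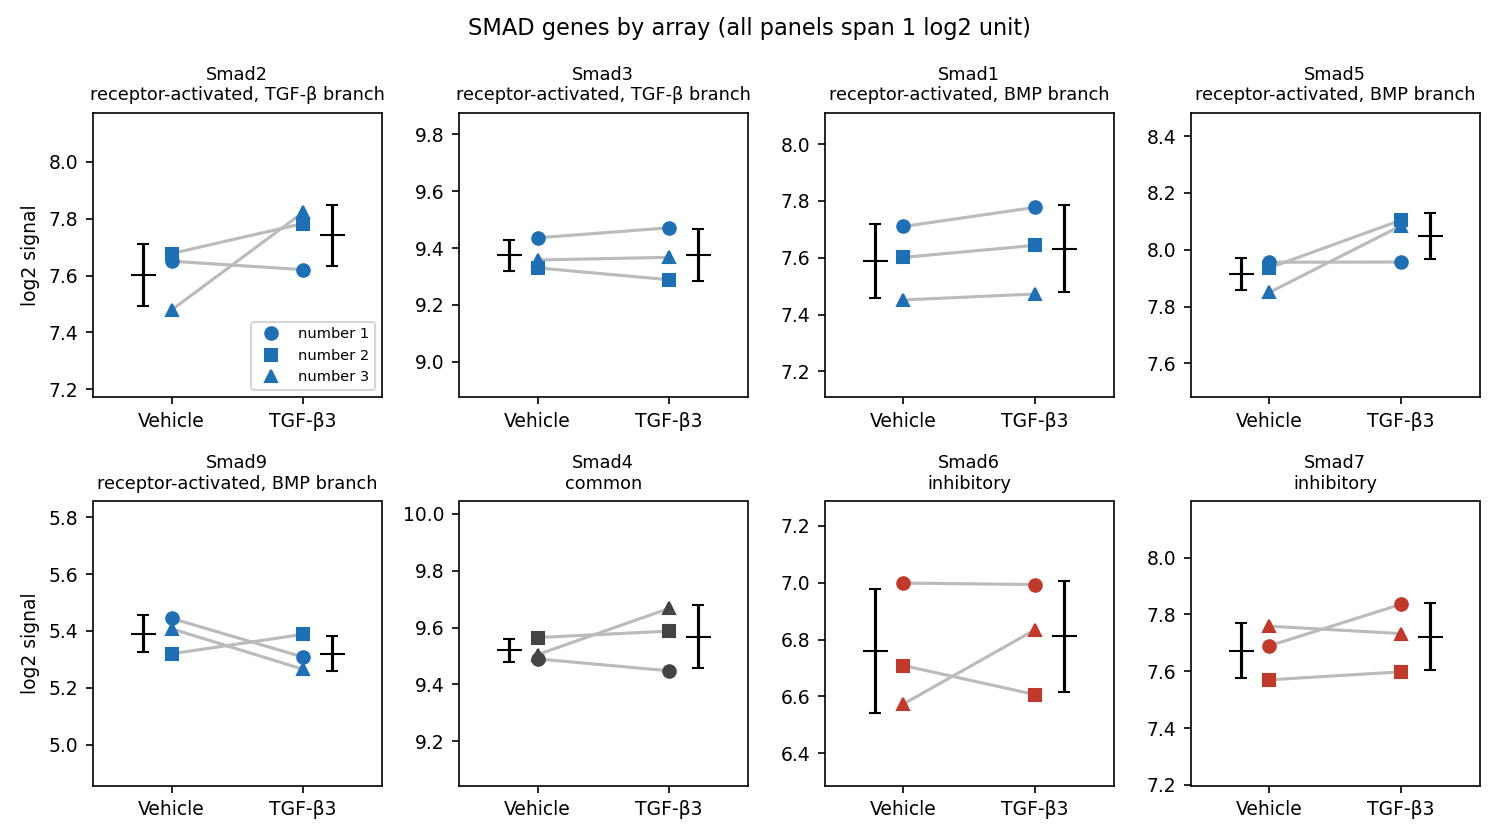
Log2 signal (vertical axis, 1 log2 unit in every panel) of each SMAD gene in vehicle and TGF-β3 arrays; symbols mark the sample number, grey lines join equal numbers, and bars beside them show the group mean ± SD of 3 arrays. Smad5 is the only panel whose groups do not overlap, by 0.001, and Smad1 keeps the order of the numbers in both groups.

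**Figure D2:**
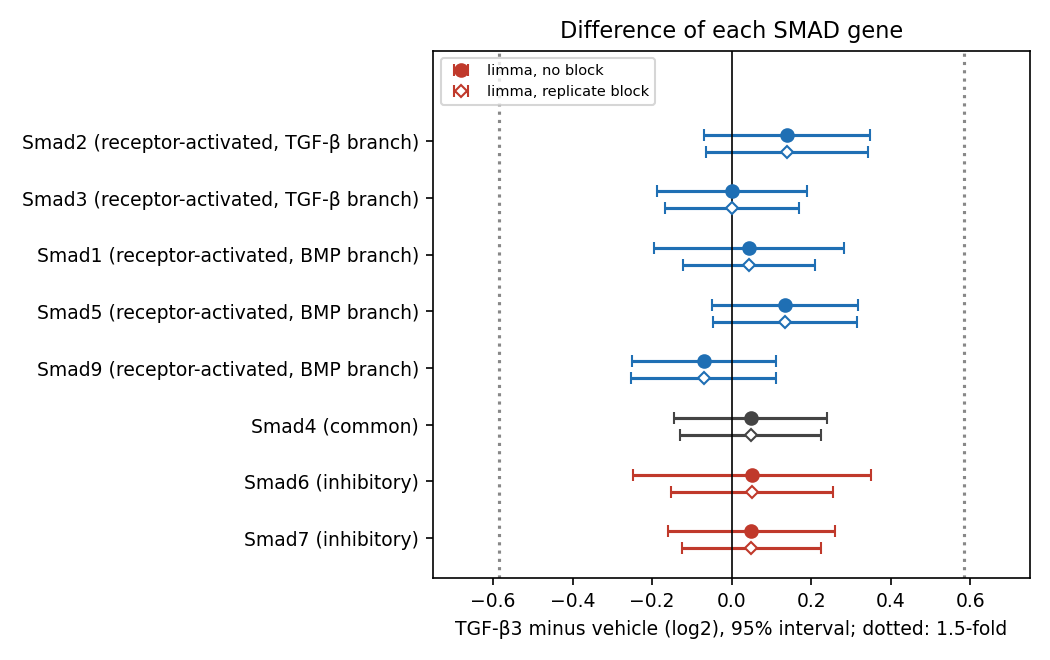
TGF-β3 minus vehicle (log2) of the 8 SMAD genes with 95% intervals from limma without (filled) and with (open) the replicate block; dotted lines mark 1.5-fold. All 16 intervals include 0 and stay inside the dotted lines.

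The class averages differed by less than their spread over the pairs. Averaged over its members, TGF-β3 minus vehicle was 0.05 ± 0.06 (SD over 3 pairs) for the 5 receptor-activated genes, 0.05 ± 0.10 for Smad4 and 0.05 ± 0.08 for the 2 inhibitory genes. Receptor-activated minus inhibitory was -0.083, 0.105 and -0.024 in the 3 pairs, with a mean of -0.001 ± 0.096 (SD over 3 pairs). Receptor-activated minus common was 0.029, 0.046 and -0.069, with a mean of 0.002 ± 0.062. Common minus inhibitory was -0.112, 0.06 and 0.045, with a mean of -0.002 ± 0.095. In each of these contrasts the pairs lay on both sides of 0. Within the receptor-activated class, the TGF-β branch differed by 0.07 ± 0.09 and the BMP branch by 0.04 ± 0.06 (SD over 3 pairs), and the gap between the branches was 0.03 ± 0.10. These class values are descriptions without a test, and 3 pairs leave room for differences of the size of these SDs.

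Of the 8 genes, 7 had a higher mean with TGF-β3, with a median difference of 0.05, where 52.8% of all genes were higher and the median was 0.01. That share varied with signal height. All genes were split by mean signal into 5 bins of equal size. In the bin from 6.73 to 8.04, which holds Smad1, Smad2, Smad5, Smad6 and Smad7, 88.7% were higher and the median difference was 0.12. In the brightest bin, which holds Smad3 and Smad4, 88.1% were higher with a median of 0.08, and in the bin of Smad9, from 4.89 to 5.58, 19.3% were higher with a median of -0.08. The vehicle 3 array moved with this: its signals were 0.17 below the 6-array mean (median over genes) in the bin with 5 SMAD genes, 0.15 below it in the brightest and 0.14 above it in the bin of Smad9. Without the vehicle 3 array, Smad1 (-0.0245), Smad3 (-0.0074) and Smad6 (-0.0421) lay below 0. Smad2 was then 0.0779, Smad4 0.0403, Smad5 0.102, Smad7 0.0922 and Smad9 -0.0614. The cause of the shift in this array was not tested. After quantile normalization of the table, 5 of the 8 were higher with a median of 0.005, and Smad1 (-0.013) and Smad3 (-0.04) turned below 0. In the same 3 bins 77.7%, 74.5% and 19.1% of genes were then higher, so the share still varied with signal height.

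**Figure D3:**
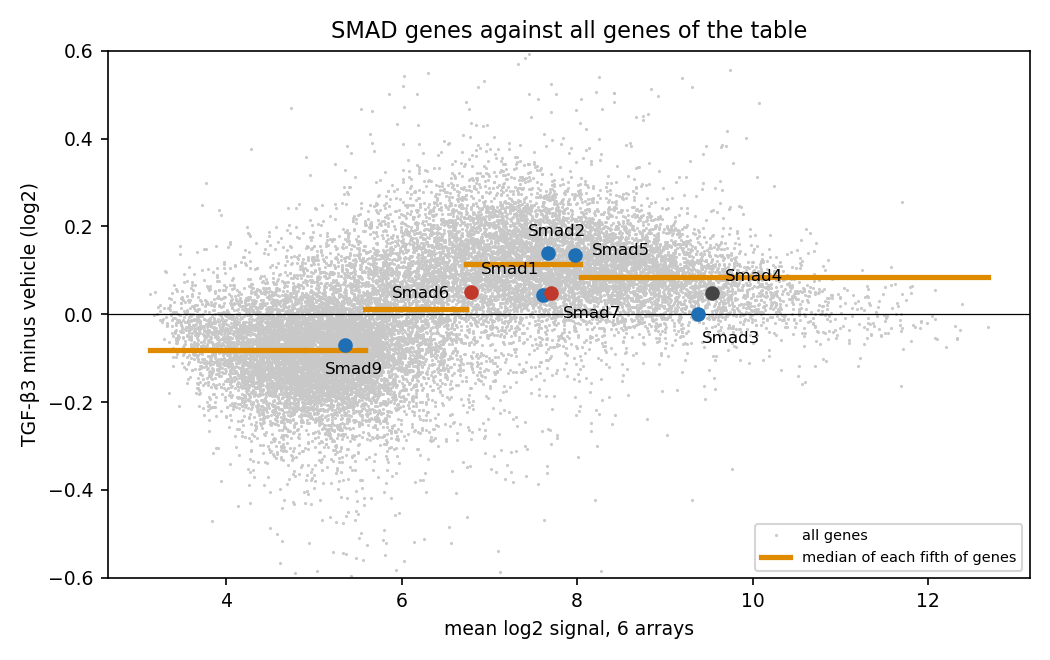
TGF-β3 minus vehicle (log2, vertical) against the mean log2 signal over 6 arrays (horizontal) for all genes (grey; 35 lie beyond the axis limit of 0.6) and the SMAD genes (blue receptor-activated, black common, red inhibitory). Orange bars are medians of 5 equal bins of genes by signal, -0.08 in the 2 dimmest and 0.12 and 0.08 in the 2 brightest, and the SMAD genes lie within the grey cloud.

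The differences of single probe sets within a gene varied in sign and size, and each had a wide interval. Of the 94 SMAD probe sets, 59 (62.8%) were higher and 35 lower with TGF-β3, against 55.1% higher among all 241576. In limma over all probe sets 0 SMAD probe sets and 0% of the array passed (smallest adjusted p = 0.993). Before adjustment, 3 SMAD probe sets (3.19%) lay under 0.05, against 4.15% on the array. All 3 were higher, as were 2.62% of the array, and the blocked fit gave 5 (5.32%), against 6.84% of the array. The median half-width of their 95% intervals was 0.41, so a probe set alone resolves less than the gene mean.

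Smad7 showed the clearest split by signal. Its 3 higher probe sets were its dimmest, with mean signals from 4.81 to 7.06 and differences from 0.14 to 0.42. Its 5 lower probe sets were its brightest, from 8.03 to 9.15, with differences from -0.22 to -0.04. Probe set 10456749 of Smad7 read 6.66, 6.68 and 6.58 in vehicle and 7.03, 7.26 and 6.85 in TGF-β3, with no overlap (difference 0.41, SE 0.15, limma adjusted p = 0.993). The brightest Smad7 probe set, 10456751, differed by -0.07 (SE 0.14). The gene value of 0.05 therefore averages opposite signs, and it was -0.19 with the median in place of the mean of its probe sets.

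In Smad2, 12 of 16 probe sets were higher, in Smad5 11 of 13, in Smad4 12 of 16 and in Smad1 8 of 11. Probe set 10456768 of Smad2 read 8.45, 8.28 and 8.24 in vehicle and 8.62, 8.65 and 8.88 in TGF-β3 (difference 0.39, SE 0.14, limma adjusted p = 0.993). Its groups did not overlap. The brightest Smad2 probe set, at a mean of 10.3, differed by -0.01, and the widest difference of the family, 0.70 in probe set 10456772 of Smad2, came with an SE of 0.50. Probe set 10405615 of Smad5 read 6.18, 6.12 and 5.85 against 6.63, 6.23 and 6.46, again without overlap (difference 0.39, SE 0.16, limma adjusted p = 0.993). These 3 probe sets of Smad7, Smad2 and Smad5 were the ones with an unadjusted p under 0.05 in the unblocked fit. The blocked limma fit added 2 of Smad2 with opposite signs. Probe set 10456772 was higher in 3 of 3 pairs (unadjusted p = 0.027). Probe set 10456773 was lower in 3 of 3 pairs (difference -0.43, unadjusted p = 0.038). Both had a limma adjusted p of 0.729 in that fit.

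Smad3 leaned the other way, with 5 of 13 probe sets higher and differences from -0.16 to 0.27. Smad4 had the tightest probe sets, with an SD of 0.09 between their differences, against 0.25 in Smad2 and Smad7 and 0.23 in Smad9. The median SE of 1 probe set was 0.15 in Smad4, 0.17 in Smad2, 0.15 in Smad7 and 0.20 in Smad9. In Smad1, Smad3, Smad5 and Smad6, as in Smad4, the SD between probe sets was below the median SE. Smad9 had 3 of 10 higher, between -0.51 and 0.42, and its brightest probe set reached a mean of only 6.45. Smad6 had 5 of 7 higher, and its brightest, at 8.76, differed by -0.09. The sources used here place no probe set on an exon, so the spread between probe sets was not assigned to transcript parts.

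**Figure D4:**
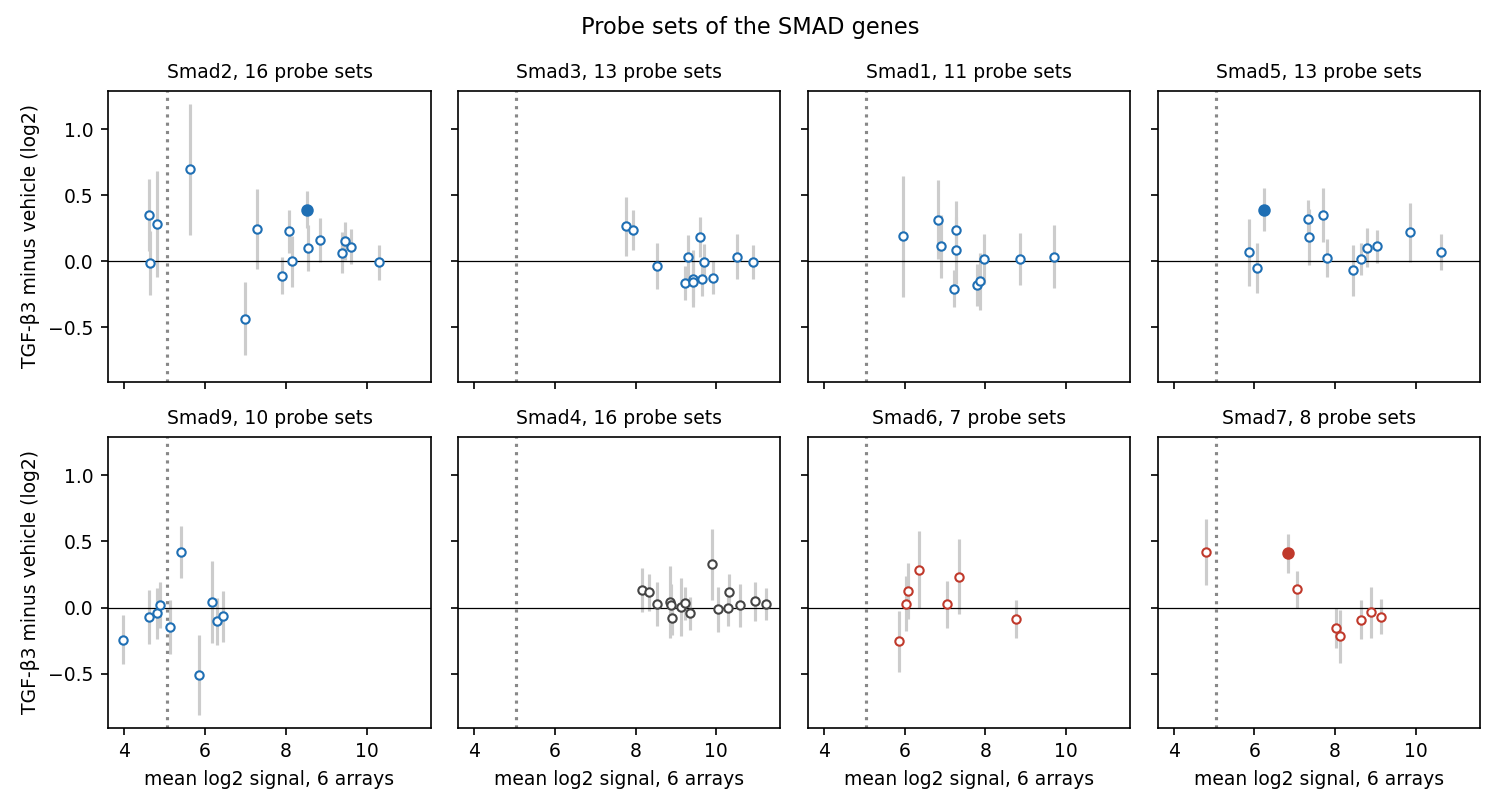
TGF-β3 minus vehicle (log2, with SE bars) of each of the 94 SMAD probe sets against its mean log2 signal over 6 arrays. Filled points have an unadjusted p under 0.05 in the unblocked fit (3 probe sets). The dotted line at 5.04 is the lower quartile of mean signal on the array. In Smad7 the 3 dimmest points lie above 0 and the 5 brightest below it.

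Across the 6 arrays the correlations between members took both signs, within and between classes. Smad2 and Smad5, receptor-activated members of different branches, had the highest value (Pearson r = 0.95 over 6 arrays), and Smad4 ran with both (r = 0.77 and 0.68). Smad3 ran with the inhibitory genes, at r = 0.88 with Smad6 and 0.76 with Smad7, and Smad1 with Smad6 at 0.65. Within classes, Smad1 and Smad3 stood at 0.54 and the inhibitory Smad6 and Smad7 at 0.46. Smad2 and Smad3, the partners of the TGF-β branch, stood at -0.34, and Smad3 and Smad4 at -0.66. In the BMP branch Smad1 stood at 0.07 with Smad5 and 0.15 with Smad9, and Smad5 and Smad9 at -0.35. Of the 28 gene pairs, 14 were above 0 and 14 below. These values are descriptions: the 6 arrays share sample numbers and array-wide shifts, and all genes of an array share its RNA. The range of the number means exceeded the treatment difference in 5 of the 8 genes, Smad1, Smad3, Smad4, Smad6 and Smad7. The range was 0.34 in Smad6 and 0.28 in Smad1. Over all genes its median was 0.17, and the median absolute treatment difference was 0.10. The range over numbers and the difference between groups are unlike measures, and the range tends to be the larger.

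The genes whose 6-array pattern was most like a member's were taken from the whole table, the closest 2 for each. For Smad2 they were Chchd3 and Trim33 (both r = 0.99), and Trim33 encodes a ubiquitin ligase that is known to bind receptor-activated SMADs. For Smad5 they were Nde1 and Kat7, for Smad4 H3c15 and Mbd3, for Smad3 Xkr7 and Cldn8, for Smad1 Exosc5 and Agrn, for Smad6 Grhl1 and 1700001O22Rik, for Smad7 Gm11878 and Ndufa11, and for Smad9 Kbtbd13 and Mir144. All had r of 0.99 or higher. With 6 points and 20848 genes many genes came close: between 17 (Smad9) and 170 genes (Smad2) exceeded 0.95.

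Genes that act on SMADs, grouped by role, differed by similar small amounts. Of 88 measured genes that are not SMADs, 74 were higher and 14 lower with TGF-β3, with a median difference of 0.08. Most (72) had signals in the 2 brightest bins, where 88.7% and 88.1% of all genes were higher. After quantile normalization 61 of the 88 were higher with a median of 0.04, and 77.7% and 74.5% of all genes in those 2 bins were still higher. None passed over all genes in limma with or without the block (0 of 88 each), and 6 had an unadjusted p under 0.05 (6.82%, against 5.16% of all genes). The groups did not overlap in 12 of 88, 10 higher and 2 lower, which is 13.6% against 12.9% of all genes.

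Among the 10 ligands, 8 were higher (median 0.10). Gdf15, a divergent family member, was lower without overlap at -0.19 (SE 0.09, limma adjusted p = 0.684). The share of all genes that were lower without overlap was 6.05%. Inhba, the activin A subunit gene, differed by 0.19 (SE 0.12), Gdf11, an activin-type ligand, by 0.18 (SE 0.09) and Inhbb, the activin B subunit gene, by -0.03 (SE 0.09). Among the 14 receptors and co-receptors, 10 were higher (median 0.08). Acvr1b, a type I receptor that phosphorylates Smad2 and Smad3, had means of 7.45 ± 0.15 and 7.71 ± 0.09 (SD, n = 3), a difference of 0.27 (SE 0.10, limma adjusted p = 0.684). Bmpr1a, a type I receptor for Smad1, Smad5 and Smad9, differed by 0.23 (SE 0.10), and Tgfbr3, a co-receptor, by 0.20 (SE 0.08). These 3 receptor genes were each higher in 3 of 3 pairs without overlap of the groups. Of all genes, 24% were higher in 3 of 3 pairs and 6.84% were higher without overlap. The 3 were named for their small p-values, and after quantile normalization they differed by 0.21, 0.19 and 0.15. Bambi, which encodes a pseudoreceptor and was picked out after its values were seen, was lower without overlap at -0.21 (SE 0.10, limma adjusted p = 0.684). Acvr1c, another activin-type receptor, differed by -0.03 (SE 0.08).

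All 8 genes of receptor anchors and scaffolds were higher in the deposited values (median 0.10), and 7 after quantile normalization. Zfyve9, whose product SARA presents Smad2 and Smad3 to the receptor, differed by 0.13 (SE 0.09), Zfyve16, which encodes the endosomal anchor endofin, by 0.17 (SE 0.12), Strap, which holds Smad7 at the receptor, by 0.12 (SE 0.08) and Hgs, an endosomal sorting gene, by 0.02 (SE 0.11). Ubiquitin ligases and deubiquitinases were higher in 14 of 14 (median 0.12; 12 of 14 and 0.07 after quantile normalization), with Nedd4l, a ligase for activated Smad2, at 0.21 (SE 0.11), Usp11, a deubiquitinase, at 0.20 (SE 0.08), Stub1, which encodes the ligase CHIP, at 0.19 (SE 0.11) and Rnf111, a ligase that clears Smad7 and SKI proteins, at 0.01 (SE 0.08). Of the genes named from these lists, Rnf111 (-0.04) and Hgs (-0.03) turned below 0 after quantile normalization.

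Phosphatases and nuclear transport genes were higher in 9 of 9 (median 0.11; 8 of 9 after quantile normalization). The importin gene Ipo8 differed by 0.26 (SE 0.09) and Xpo4, an exportin for Smad3, by 0.20 (SE 0.08). Both were named for their small p-values, and both were higher without overlap, as were 6.84% of all genes. Lemd3, an inner nuclear membrane protein gene that opposes receptor-activated SMADs, differed by 0.26 (SE 0.13), and its vehicle SD of 0.28 exceeded that difference. Ctdsp1, a SMAD phosphatase gene, differed by 0.04 (SE 0.10). Of 12 coactivators and DNA-binding partners 11 were higher (median 0.04), but 6 of 12 after quantile normalization with a median of -0.003. Foxh1, a partner of Smad2, differed by -0.18 (SE 0.10) at a low signal of 4.64 in vehicle, Kat2b, a histone acetyltransferase gene, by 0.16 (SE 0.13) and Tead1, a DNA-binding factor gene, by 0.09 (SE 0.08). Crebbp, which encodes the coactivator CBP, differed by 0.001 (SE 0.08), and by -0.028 after quantile normalization.

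The corepressors and feedback genes had a median of 0.05 with 7 of 10 higher. Mecom, whose product binds Smad3, differed by 0.15 (SE 0.09), Skil, which encodes the corepressor SnoN, by 0.09 (SE 0.09), Ldlrad4, a membrane inhibitor gene related to Pmepa1, by 0.08 (SE 0.10) and Pmepa1, which encodes a membrane protein that sequesters Smad2 and Smad3, by -0.005 (SE 0.09). The 15 measured direct targets, Smad6 and Smad7 among them, had a median of 0.04 with 10 higher, and 0.001 with 8 higher after quantile normalization. Itgb6, an integrin gene whose product activates latent TGF-β, differed by 0.18 (SE 0.10), Id3, a BMP target, by 0.15 (SE 0.10), Klf10, a TGF-β-inducible early gene, by 0.19 (SE 0.18) and Ccn2, which encodes the matricellular protein CTGF, by -0.004 (SE 0.09). Ccn2 was at 10.9 in both groups. The inhibitory SMADs, at 0.05 each, lay near the median of the target list.

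**Figure D5:**
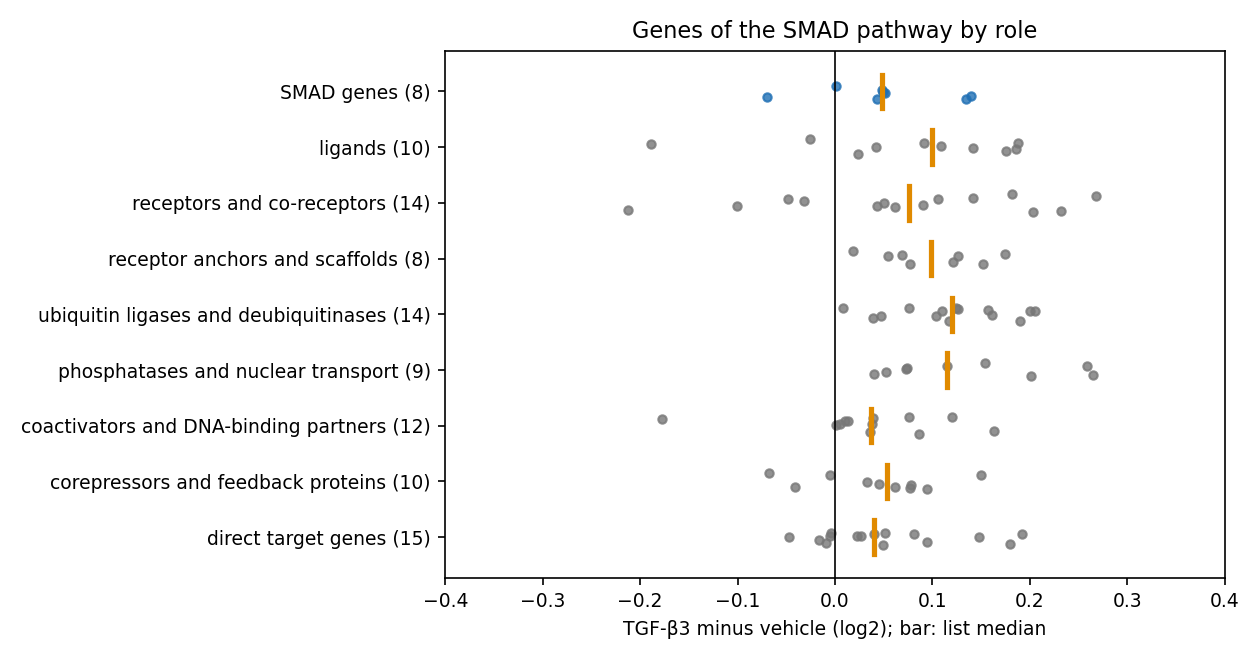
TGF-β3 minus vehicle (log2, horizontal) of the 8 SMAD genes (blue) and of the pathway genes grouped by role (grey, numbers of measured genes in parentheses); points are scattered vertically for visibility and orange bars are list medians. The medians lie between 0.04 and 0.12, and no point passes the test.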

How the data were processed

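Per the labels' protocols, total RNA was extracted with Trizol, biotin labelled and hybridised to Affymetrix whole-transcript mouse gene arrays, version 1.1. The authors deposited log2 signals made, per the submitters' processing notes, with RMA in Affymetrix Power Tools. Tool versions and the genome build: not given in the sources used here. Signals ran from 2.96 to 13.07, a log2 range. The number of arrays limits the precision.

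Groups and numbers came from the sample titles. Of 241576 probe sets, 213361 (88.3%) had 1 symbol, 5107 had several and 23108 were not listed. Of 20893 symbols, 18496 were current in the reference gene table (GRCm38.p6), 2354 were updated and 43 kept, giving 20848 genes, as means of their probe sets with no filter. limma 3.58.1 in R 4.3.3 (lmFit, eBayes, no block) was fitted on all genes, and again on all probe sets, with Benjamini-Hochberg adjustment and a threshold of 0.05. Differences are TGF-β3 minus vehicle. Unblocked p-values set a difference against the spread between the 3 experiments within each group. Blocked p-values set it against the spread of the differences by sample number. SEs, intervals and p-values in the text are from the unblocked fit unless the block is named. Fits were tested on simulated data with independent noise of the same size for every gene. The simulation held no effect of experiment and no shift of an array, so it does not cover those features of the arrays. Tables used Python 3.11.15 with pandas 2.3.3, and figures matplotlib 3.10.9.

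Same-numbered arrays deviated together from their group means (r = 0.62, 0.41 and 0.22 across genes), so the numbers were taken as pairs, least securely for number 3. The paired fit changed no SMAD call.

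Members and lists were chosen with earlier results of these data known. Named were all SMAD genes and, in each, the probe sets of largest difference, highest and lowest signal and unadjusted p under 0.05 in either fit. Also named were the 3 members of smallest p and that of largest p in each list, and the 2 genes most like each SMAD. The lists held 90 measured genes, and other listed genes are not reported here. Near-identical SMAD members may share probe signal.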

Additional observations from a re-analysis of the deposited data

How the results depend on the processing

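With 19 alternatives (replicate block, normalization, centring, filters on dim genes and probe sets, probe set summary, eBayes options, array weights, omitted arrays and omitted pairs) no SMAD gene or pathway gene passed (smallest adjusted p of a SMAD gene 0.362), nor any SMAD probe set in the 16 alternatives that were fitted on probe sets. The replicate block gave 2 genes over the whole table, 1 after quantile normalization as well, and omitting arrays gave 0 to 2; none was a SMAD. Of 152 SMAD gene values under alternatives, 124 kept their sign and 28 turned it, all of differences that had not passed; the causes were not tested. Smad5 and Smad9 kept their sign throughout, from 0.033 to 0.201 and from -0.139 to -0.003. After quantile normalization, with or without the block, Smad1 was -0.0133 and Smad3 -0.0395. The median probe set gave -0.029 for Smad1, -0.042 for Smad3, -0.033 for Smad4 and -0.186 for Smad7. The brightest probe set gave -0.0084 for Smad2, -0.0046 for Smad3, -0.086 for Smad6 and -0.068 for Smad7. Smad7 was -0.0035 without dim probe sets, and Smad1 -0.0014 with array weights. Omitting an array or a pair moved Smad1 between -0.029 and 0.123, Smad2 between 0.038 and 0.224, Smad3 between -0.0467 and 0.0446, Smad4 between -0.0095 and 0.1077, Smad6 between -0.054 and 0.171 and Smad7 between -0.0075 and 0.1113. Without number 1 in both groups Smad3 was -0.0161, without number 3 Smad3 was -0.0032 and Smad4 -0.0095, and without TGF-β3 3 Smad4 was -0.002. Receptor-activated minus inhibitory lay between -0.092 and 0.072 under these omissions, and common minus inhibitory between -0.095 and 0.131. The last was 0.105 with the brightest probe set. With 3 arrays a group the median half-width of a gene's 95% interval was 0.218.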
